A study of Mus musculus with 89 samples.

Results

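A group of 8 genes of iron handling was followed along the crypt-villus axis of the mouse jejunum and across its cell types. They were listed by name, with no threshold on their values, and they were Cybrd1, Slc11a2, Slc40a1, Heph, Fth1, Ftl1, Tfrc and Hmox1. All 8 were found among the 27538 genes of the clump table and among the 23379 genes of the single cell table. None of them belonged to the landmark genes that placed clumps and cells along the axis or to the marker lists that named cell types.

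Dietary iron is reduced at the brush border of the enterocyte, carried in by a divalent metal transporter, and then either stored in ferritin or exported to the blood across the basolateral membrane. Ferritin is a shell built of heavy and light chains, and the heavy chain oxidises the iron that is stored. Iron regulatory proteins bind hairpins called iron responsive elements in the mRNAs of several of these genes, and in this way cells adjust ferritin, ferroportin and transferrin receptor to their iron content. Enterocytes are born in the crypt, migrate up the villus and are shed from its tip.

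The samples were 89 plates of jejunal epithelium from male C57BL/6 mice fed regular chow, dissociated with EDTA. Clumps of attached cells, sorted by DNA content after Hoechst staining and a Zombie Green viability stain, filled 27 plates gated at 4n (pairs of cells, mice 1 to 5), 14 plates gated above 4n (mice 1, 4 and 5) and 4 plates gated above 2n (mouse 6 only, kept out of the main comparisons). The other 44 plates held single cells of 4 mice, sorted as Epcam+ CD45- cells or through CD24 gates that enriched enteroendocrine and tuft cells. All plates were labelled 3 months of age except 3 plates of single cell mouse 2, labelled 4 months, and the mice of both tables were numbered apart. No mouse was treated and no gene was altered, so zones and cell types are the groups compared, and the mouse number is the replicate.

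After filtering, 5883 clumps of mice 1 to 5 were placed by their landmark genes, which gave 3529 crypt, 1550 mid-villus and 804 tip clumps. Their median depth fell from 4424 unique molecular identifiers (UMIs, counts of distinct captured mRNA molecules) per clump among crypt clumps to 1354 among tip clumps. The totals of a mouse ranged from 369045 to 19001409 UMIs for the crypt and from 79055 to 816189 for the tip. The zone labels were checked on marker lists. A list of 20 enterocyte markers, 5 of them landmarks, summed to 3723 to 15842 UMIs in every 1000000 (CPM) in crypt sums and 54620 to 98438 at the tip, and 10 stem and dividing cell markers, none of them a landmark, to 286 to 733 in the crypt and 49.0 to 136 at the tip. Crypt sums also held 13.7 to 14728 CPM of 10 Paneth cell markers, with at most 548 at the tip. Clumps therefore mix cell types, and in such sums fewer cells of a type and less RNA per cell cannot be told apart. The levels of genes are CPM on the scale of the edgeR tests, which uses TMM (trimmed mean of M values) factors. UMIs are counted at the 3′ end of transcripts, and levels were compared between groups and not between genes.

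A strict pattern for the motif that iron regulatory proteins bind is shown first, and it divides the 8 genes into those with a match and those without. Transcripts of the GENCODE annotation (GRCm38) were searched for CNNNNNCAGTGN followed by 5 bases that pair with the 5 before the loop, G to T pairs allowed. It was found on the sense strand of 4 of the 8 genes, once in the 5′ UTR of Fth1, Ftl1 and Slc40a1 and 4 times in the 3′ UTR of Tfrc. Among 22500 protein-coding genes, 0.124% had such a match in a 5′ UTR and 0.569% in a 3′ UTR. Each site is given with 6 bases before the bulged C, and capitals mark the loop bases CAGTGN. In GRCm38 the genes lie at chr19:9980598-9985098 (Fth1, plus strand), chr7:45457944-45459884 (Ftl1, minus), chr1:45908068-45926523 (Slc40a1, minus) and chr16:32608920-32632794 (Tfrc, plus). Those with no match lie at chr2:71117923-71142926 (Cybrd1, plus), chr15:100387898-100425072 (Slc11a2, minus), chrX:96455359-96574485 (Heph, plus) and chr8:75093621-75100589 (Hmox1, plus).

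Fth1, 5′ UTR, chr19:9982732-9982760, plus strand: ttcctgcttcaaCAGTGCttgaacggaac
Ftl1, 5′ UTR, chr7:45459779-45459807, minus strand: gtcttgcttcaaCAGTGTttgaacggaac
Slc40a1, 5′ UTR, chr1:45925465-45925493, minus strand: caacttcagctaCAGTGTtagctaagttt
Tfrc, 3′ UTR, chr16:32631219-32631247, plus strand: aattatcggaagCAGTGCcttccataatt
Tfrc, 3′ UTR, chr16:32631598-32631626, plus strand: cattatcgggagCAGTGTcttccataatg
Tfrc, 3′ UTR, chr16:32631663-32631691, plus strand: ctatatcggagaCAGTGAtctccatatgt
Tfrc, 3′ UTR, chr16:32631710-32631738, plus strand: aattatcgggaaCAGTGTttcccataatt

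Both ferritin sites share the paired bases next to the loop, and they differ in the last base of the loop and before the bulged C. A match describes letters and not binding. The pattern allows no unpaired base within its stem next to the loop, so an element with such a base would be missed. The absence of this pattern from the transcripts of the other 4 genes therefore does not show that they lack an iron responsive element.

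Along the axis of the clumps, Tfrc fell from the crypt to the villus under every setting tried. Heph also fell there, Fth1 fell at the tip, and Slc11a2 was higher in the mid-villus, but these calls were lost under some settings. Of the 8 genes, 5 passed the filter on low counts, and Cybrd1, Slc40a1 and Hmox1 did not. At the tip against the crypt, 3 of the 5 tested genes passed edgeR's quasi-likelihood test at an adjusted p of 0.05, all 3 lower, beside 52.8% of the 7380 genes tested in either direction. In the mid-villus against the crypt 3 of 5 passed, 1 higher and 2 lower, beside 40% of all genes, and at the tip against the mid-villus 1 of 5, lower, beside 12%. The median log2 change of the tested iron genes was -0.995, 0.32 and -0.32 in the 3 comparisons, and that of all tested genes was -0.15, -0.04 and -0.13. With 3 of 5 beside 52.8% of all genes, the number of calls at the tip is not a result about iron genes, and the levels of each gene follow.

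**Figure D1:**
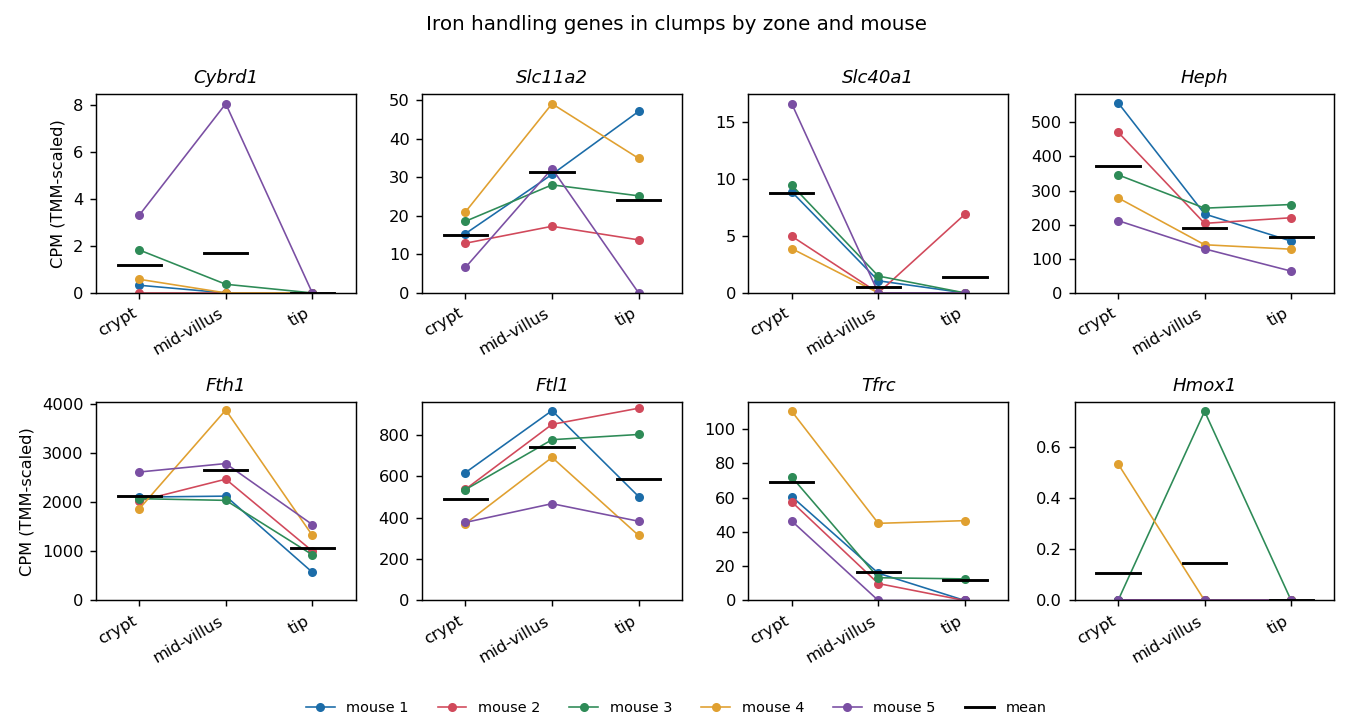
Levels of the 8 iron handling genes in clumps, as TMM-scaled CPM (y axis, linear, a separate scale for each gene) in the crypt, mid-villus and tip (x axis). Points joined by a line are sums of 1 mouse and black bars are means over 5 mice. Tfrc lies between 46.4 and 110 in the crypt and at 46.6 or below at the tip, and Fth1 lies between 1867 and 2620 in the crypt and between 576 and 1549 at the tip.

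The uptake genes came first in the path of iron. Cybrd1, the duodenal cytochrome b that reduces iron at the brush border, was nearly undetected, with 21 UMIs over all crypt clumps, 2 over all mid-villus clumps and 0 over all tip clumps. The count of 0 at the tip allows up to 1.90 CPM, which is above the pooled crypt level of 0.803 (0.497 to 1.23, exact Poisson interval for counting error only), so no difference was detectable at this depth. Without mouse 4 the crypt level was 1.26, below the limit of 2.01 then allowed at the tip. Slc11a2 encodes DMT1, the transporter that carries ferrous iron into the enterocyte. Its levels in mice 1 to 5 were 15.4, 12.9, 18.6, 21.1 and 6.63 for crypt clumps. Mid-villus clumps had 30.8, 17.3, 28.1, 49.1 and 32.3, and tip clumps 47.1, 13.8, 25.2, 34.95 and 0. The mid-villus value was above the crypt value in 5 of 5 mice although the groups overlapped, and the tip value in 4 of 5, mouse 5 having no UMI at the tip. Slc11a2 was higher in the mid-villus by 0.90 ± 0.35 (log2, standard error; edgeR adjusted p = 0.0482). This call was lost without mouse 1 (adjusted p = 0.168, edgeR), mouse 3 (0.188) or mouse 4 (0.111), and with all 5 mice when scaled by total UMIs (0.124) or DESeq2 size factors (0.164), with mouse 6 added (0.0629), fitted with no filter (0.0767) or with zones set by z scores (0.107), and in 4n pairs alone the gene did not pass the filter on low counts. The DESeq2 fit gave an adjusted p of 0.155. At the tip its change of 0.64 ± 0.43 did not pass (edgeR adjusted p = 0.218). The gene overlaps Gm5475 on the opposite strand.

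Of the export genes, Heph passed the test and Slc40a1 was too low for it. Slc40a1 is ferroportin, the iron exporter of the basolateral membrane. Crypt clumps of mice 1 to 5 had 27, 5, 36, 80 and 5 of its UMIs, mid-villus clumps 1, 0, 4, 0 and 0, and tip clumps 0, 2, 0, 0 and 0. Pooled over mice this is 5.85 CPM in the crypt (4.96 to 6.85) and 1.06 in the mid-villus (0.344 to 2.47), a ratio of 5.53 (2.32 to 17.3) where the intervals cover counting error only. The ratio of crypt to tip was 4.61 (1.25 to 38.4), on 2 tip UMIs. Mouse 4 held most crypt UMIs at the lowest level, and without it the crypt level was 10.2 CPM and the ratios 8.73 (3.58 to 27.7) and 7.63 (2.04 to 64.2). Without mouse 3 they were 11.7 (2.07 to 468, on 1 mid-villus UMI) and 1.93 (0.523 to 16.1), and without mouse 2 no tip UMI was left. The scaled crypt sums were at 3.88 to 16.6 CPM, and the 6.89 of mouse 2 at the tip lay within their range. The sums with no UMI, 3 in the mid-villus and 4 at the tip, held 79055 to 816189 UMIs over all genes, and a 0 at such depth sets only a loose limit. Slc40a1 was too low for the test, and in the fit with no filter its mid-villus change of -2.98 ± 0.77 passed (edgeR adjusted p = 0.0069) and its tip change of -2.40 ± 1.00 did not (0.0946).

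Heph, hephaestin, is the copper-dependent ferroxidase that works beside ferroportin. Its levels in mice 1 to 5 were 558, 471, 346, 279 and 212 for the crypt, 231, 204, 249, 141 and 129 for the mid-villus, and 152, 220, 259, 128 and 63.9 for the tip. The mid-villus and the tip were below the crypt in 5 of 5 mice, although the low crypt value of mouse 5 lay within the villus range. Heph fell by 0.95 ± 0.33 in the mid-villus (log2; edgeR adjusted p = 0.0279) and by 1.11 ± 0.34 at the tip (edgeR adjusted p = 0.0104), and between mid-villus and tip it differed by -0.15 ± 0.35 (edgeR adjusted p = 0.825). Without mouse 1, the mouse with the highest crypt level, the adjusted p values by edgeR were 0.0682 and 0.0673. Without mouse 2 the mid-villus value was 0.0984, in 4n clumps alone it was 0.0745, and with no filter 0.0774. The gene overlaps Hsf3 on the opposite strand and a pair of processed pseudogenes on its own strand, Rpl17-ps8 and Gm14935. The mean of the 4 emptiest wells of each plate was also subtracted from the clump sums. In mouse 3 this took Heph from 1321, 673 and 185 UMIs in crypt, mid-villus and tip to 1220, 569 and 150. It lost UMIs in mouse 4 too and none in mice 1, 2 and 5, while Ftl1 and Tfrc lost none in any mouse. The part of this background in the Heph levels was not tested.

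The storage genes encode the chains of ferritin. Fth1, the ferritin heavy chain, stood at 2109, 2030, 2077, 1867 and 2620 in crypt clumps of mice 1 to 5. Mid-villus clumps had 2129, 2475, 2042, 3886 and 2793, and tip clumps 576, 1009, 933, 1328 and 1549. Every tip value was below every crypt and every mid-villus value, while crypt and mid-villus overlapped. The summed level of 39 goblet cell markers also differed between zones, at 1056 to 2224 CPM for the crypt (39 of 39 with a UMI), 776 to 4264 for the mid-villus (38) and 1025 to 7415 for the tip (38), and its part in the Fth1 levels was not tested. Fth1 fell by 1.00 ± 0.32 at the tip against the crypt (log2; edgeR adjusted p = 0.0119) and by 1.31 ± 0.32 against the mid-villus (edgeR adjusted p = 0.0106), and its mid-villus change of 0.32 ± 0.31 did not pass (edgeR adjusted p = 0.457). Without mouse 1 or mouse 2 the tip against crypt values were -0.75 and -0.89, with adjusted p of 0.0895 and 0.0745 (edgeR), and with zones set by z scores -0.44 (0.275). Against the mid-villus the adjusted p by edgeR was 0.0939, 0.0687 and 0.0718 without mouse 1, 2 or 3, and 0.188 with zones set by z scores.

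Ftl1, the ferritin light chain, stood at 619, 538, 536, 372 and 378 in crypt clumps, 918, 852, 778, 692 and 468 in mid-villus clumps, and 503, 930, 803, 315 and 383 in tip clumps. The mid-villus value exceeded the crypt value in 5 of 5 mice, with overlapping groups, and the tip value did so in 3 of 5. Its log2 change was 0.61 ± 0.32 in the mid-villus (edgeR adjusted p = 0.141) and 0.28 ± 0.32 at the tip (edgeR adjusted p = 0.483). With the mouse as a replicate block the mid-villus change passed (0.61, edgeR adjusted p = 0.0116). A miRNA gene, Gm22133, lies on the same strand within Ftl1, and Gm10252 overlaps it on the other.

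The ratio of Fth1 to Ftl1 UMIs does not depend on the scaling of the sums. In mice 1 to 5 there were 3.41, 3.77, 3.87, 5.02 and 6.94 Fth1 UMIs for each Ftl1 UMI in crypt clumps. The mid-villus ratios were 2.32, 2.91, 2.63, 5.62 and 5.97, and the tip ratios 1.15, 1.09, 1.16, 4.22 and 4.04. The tip ratio was below the crypt ratio in 5 of 5 mice. Mice 4 and 5 kept high ratios at the tip, on 27 and 24 Ftl1 UMIs, and these overlapped the crypt range. The mean log2 difference was -1.23, and a two-sided exact permutation test of mice gave p = 0.0794, where the smallest this design allows is 0.00794. Paired by mouse the exact p was 0.0625, the smallest that 5 pairs allow.

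**Figure D2:**
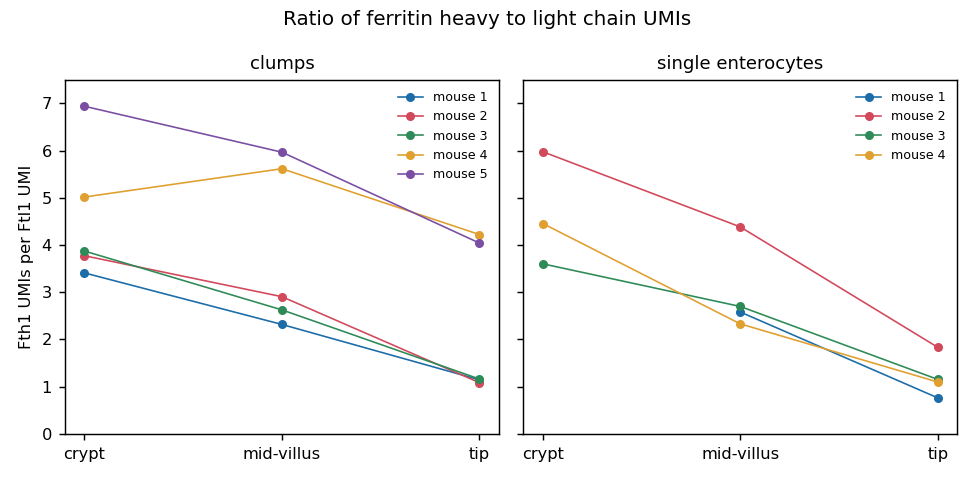
Fth1 UMIs per Ftl1 UMI (y axis, linear) by zone (x axis) in clumps of 5 mice (left) and in single enterocytes of 4 mice (right), 1 line per mouse. Tip ratios in clumps are 1.09 to 4.22 and in single enterocytes 0.764 to 1.84, and for each mouse with both zones the tip ratio lies below its crypt ratio.

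Tfrc, the transferrin receptor, takes up iron bound to transferrin from the blood side and is known for high levels in dividing cells. It stood at 60.7, 57.6, 72.1, 110 and 46.4 in crypt clumps of mice 1 to 5, 15.9, 9.89, 13.3, 45.0 and 0 in mid-villus clumps, and 0, 0, 12.6, 46.6 and 0 in tip clumps. Every mid-villus value was below every crypt value, and at the tip mouse 4, on 4 UMIs from 27 clumps, sat just above the lowest crypt value of mouse 5. Tfrc fell by 2.00 ± 0.50 in the mid-villus (log2; edgeR adjusted p = 0.00274) and by 2.90 ± 0.67 at the tip (edgeR adjusted p = 0.00108). Pooled UMIs gave a crypt to tip ratio of 13.0 (7.60 to 24.5, counting error only), and 20.9 (8.16 to 76.8) without mouse 3. Both calls held without each mouse in turn and under each other setting tried in clumps. The 10 stem and dividing cell markers fell along with it, from 286 to 733 CPM (crypt) to 74.9 to 130 (mid-villus), and their part in the Tfrc result was not tested.

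Hmox1, heme oxygenase, releases iron from heme. It had 11 UMIs among crypt clumps, all from mouse 4, then 2 among mid-villus clumps, both from mouse 3, and 0 among tip clumps, too few for any statement on zones. Macrophages are rich in Hmox1 and Slc40a1. Of 9 macrophage markers that were listed among the genes, 8 had a UMI in the crypt, 5 in the mid-villus, where C1qa, C1qb, C1qc and Cd163 were at 0, and 5 at the tip, where C1qa, Csf1r, Cd68 and Cd163 were at 0. Summed they stood at 40.6 to 82.8 CPM for the crypt, 52.2 to 168 for the mid-villus and 50.6 to 196 for the tip, and their part in the levels of both genes was not tested. Erythrocyte markers, 5 of them in the table, were at or below 0.526 CPM in every zone sum of all clumps, and reached 2.502 CPM in the crypt sums of 4n pairs.

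No iron gene was called between clump sizes. In the crypt, clumps gated above 4n (3 mice) were compared with 4n pairs (5 mice), and the 5 tested genes changed by between -0.17 and 0.31 (log2). None of the 5 passed, beside 0% of 7332 genes by edgeR and 0 by DESeq2, with 219 genes at an unadjusted p under 0.05 by edgeR and 96 by DESeq2. A fit with the mouse as a replicate block called 30 genes, none of them an iron gene of the 8.

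Single cells were placed along the same axis where they were called enterocyte-like, by at least 10 UMIs of the enterocyte marker list. Cells with fewer of these UMIs, in the crypt as elsewhere, were left out, so these crypt sums need not match the crypt of clumps. Of 5199 cells kept, 2364 were called enterocyte-like, and 2361 of these were placed by the same landmarks, as 336 crypt, 853 mid-villus and 1172 tip cells. Mouse 1 had 2 crypt cells and gave no crypt sum, which leaves 3 crypt sums against 4 sums in each villus zone. At the tip against the crypt 3 of 5 tested genes fell, beside 54% of the 4213 genes tested, in the mid-villus against the crypt 2 of 5 beside 22%, and at the tip against the mid-villus 1 of 5 beside 29.1%. The median log2 change of the tested iron genes was -0.94, -0.52 and -0.82, and that of all tested genes 0.08, 0.05 and -0.04. Scaled by total UMIs the median of all genes moved to -0.75, -0.19 and -0.61, and in clumps to -0.51, -0.14 and -0.38. Mitochondrial and ribosomal RNA took 51.4 to 63.8% of UMIs in these crypt sums and 67.7 to 79.6% in tip sums, and in clumps 13.3 to 41.4% and 21.8 to 48.8%, higher at the tip in 5 of 5 mice, and the part of this share in the changes was not tested. Cybrd1 and Hmox1 had no UMI in any zone of these cells, and Slc40a1 had 3, 4 and 1 in crypt, mid-villus and tip.

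**Figure D3:**
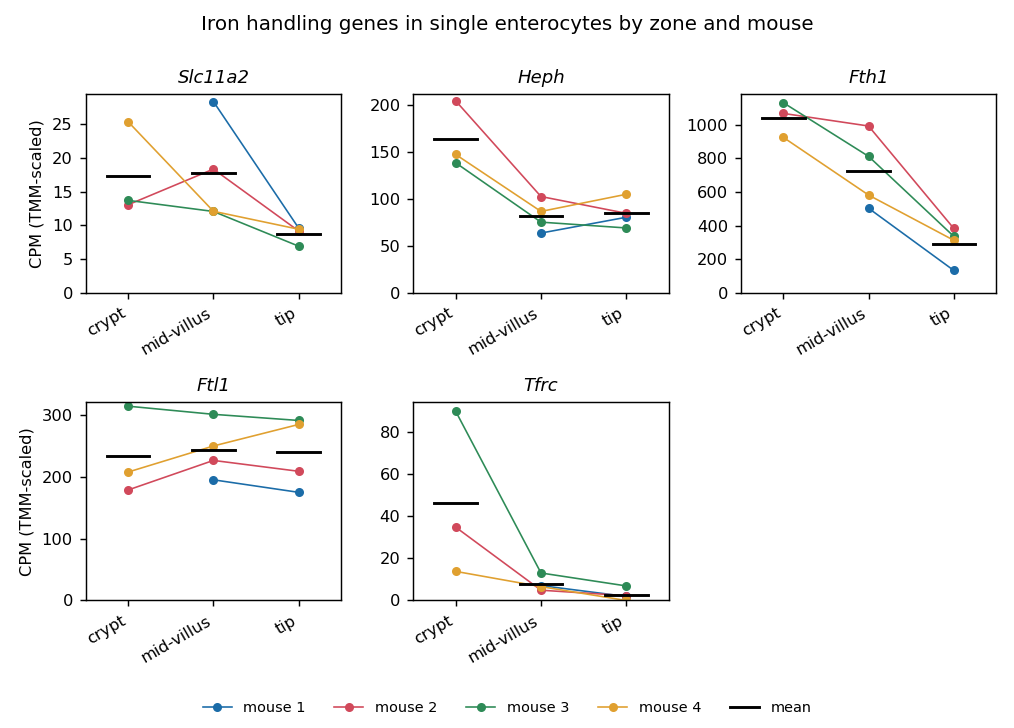
Levels of the 5 tested genes in single enterocytes, as TMM-scaled CPM (y axis, linear) by zone (x axis), with 1 line per mouse and black bars for the means. Mouse 1 has no crypt point. Fth1 lies between 925 and 1132 in the crypt and between 134 and 383 at the tip.

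Fth1 in single enterocytes stood at 1068, 1132 and 925 in crypt cells of mice 2, 3 and 4. Mid-villus cells of mice 1 to 4 had 504, 993, 813 and 582, and tip cells 134, 383, 336 and 313. The tip lay below both other zones with no overlap. Fth1 fell by 1.85 ± 0.32 at the tip against the crypt (log2; edgeR adjusted p = 0.000126) and by 1.32 ± 0.30 against the mid-villus (edgeR adjusted p = 0.00414), and both calls held without each mouse in turn. Ftl1 stood at 179, 314 and 208 in crypt cells, 195, 227, 301 and 250 in mid-villus cells, and 175, 209, 291 and 285 in tip cells, with ranges that overlapped throughout. Its tip change was 0.02 ± 0.27 (log2; edgeR adjusted p = 0.965). The ratio of the chains was 5.98, 3.60 and 4.46 in the crypt of mice 2, 3 and 4 and 0.764, 1.84, 1.15 and 1.10 at the tip of mice 1 to 4. These did not overlap, and the two-sided exact permutation p of 0.0571 (n = 3 and 4) is the smallest that this design allows.

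Heph stood at 205, 139 and 148 in crypt cells, 63.9, 103, 75.5 and 87.0 in mid-villus cells, and 80.7, 85.0, 69.3 and 105 in tip cells, with no overlap between the crypt and either villus zone. It fell by 0.95 ± 0.24 in the mid-villus (log2; edgeR adjusted p = 0.00736) and by 0.91 ± 0.24 at the tip (edgeR adjusted p = 0.00446). Without mouse 2 the adjusted p values by edgeR were 0.0944 and 0.0994, without mouse 4 the mid-villus value was 0.0508, with zones set by z scores it was 0.168, and with no filter 0.147. Tfrc stood at 34.9, 90.0 and 13.8 in crypt cells, 7.10, 4.90, 13.1 and 6.60 in mid-villus cells, and 1.92, 2.30, 6.93 and 0 in tip cells. The crypt sums were above all villus sums, and they ranged from 6 to 59 UMIs. Tfrc fell by 2.56 ± 0.57 in the mid-villus (log2; edgeR adjusted p = 0.00252) and by 4.46 ± 0.73 at the tip (edgeR adjusted p = 6.48e-05). Without mouse 3, the mouse with the highest crypt level, the mid-villus change was -1.87 (edgeR adjusted p = 0.117). With zones set by z scores, or scaled by total UMIs without mitochondrial and ribosomal RNA rows, Tfrc did not pass the filter on low counts and had no call in either zone. Markers of other cell types were also counted in these enterocyte sums. Plasma cell markers (4 in the table) summed to 10.5 to 7868 CPM in the crypt (median 685, 4 with a UMI) and 3.12 to 1433 at the tip (median 260, 3 with a UMI), and 15 lymphocyte markers to 36.7 to 159 (14 with a UMI) and 8.85 to 226 (15). Their part in the falls of Fth1, Heph and Tfrc was not tested. The stem and dividing cell markers summed to 74.1 to 94.3 CPM in these crypt sums and 24.98 to 38.80 at the tip. The crypt values lay below those of every crypt sum of clumps.

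Slc11a2 stood at 13.1, 13.7 and 25.4 in crypt cells, 28.4, 18.4, 12.1 and 12.1 in mid-villus cells, and 9.61, 9.18, 6.93 and 9.44 in tip cells. The tip was below the other zones with no overlap, on 23 UMIs in all. Its change at the tip against the crypt was -0.94 ± 0.47 (log2; edgeR adjusted p = 0.0985), and with the mouse as a replicate block it passed (-1.26, edgeR adjusted p = 0.0436), as it did scaled by total UMIs (-1.81, edgeR adjusted p = 0.00715). In the mid-villus it was -0.12 ± 0.43 (edgeR adjusted p = 0.884), where clumps had 0.90. The difference between clumps and single cells was not tested.

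**Figure D4:**
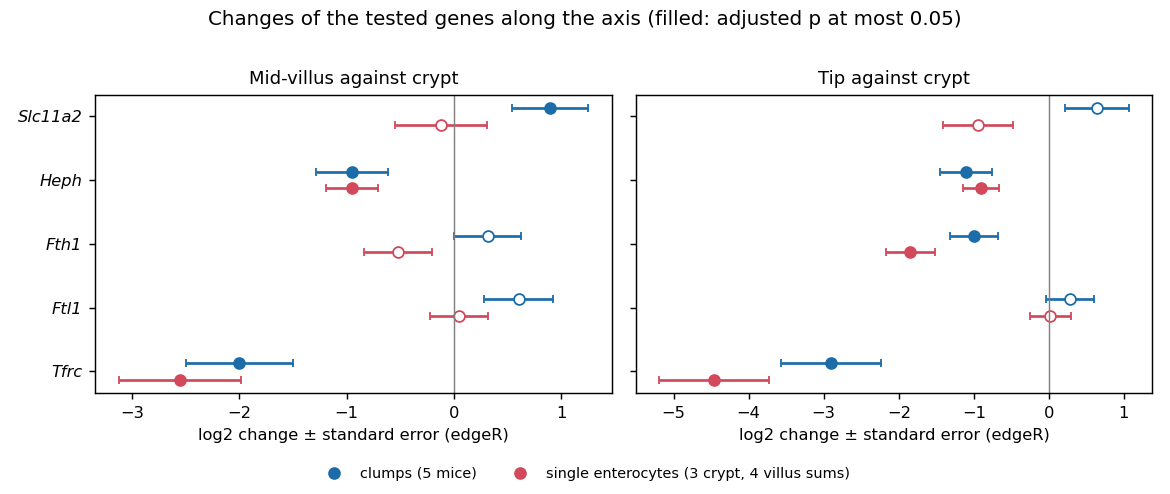
Log2 changes of the 5 tested genes (x axis) with standard errors as bars, for the mid-villus (left) and the tip (right) against the crypt, in clumps (blue) and single enterocytes (red). Filled points have an edgeR adjusted p of at most 0.05. Heph and Tfrc lie left of 0 in both tables and both zones, and Fth1 does so in both tables at the tip.

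Between cell types, single cells named by marker lists were summed per mouse and compared with enterocytes in 4 mice. The calls were 210 goblet-like, 193 tuft-like, 219 enteroendocrine-like and 1504 lymphocyte-like cells, with as few as 5 cells in some sums and 7 lymphocyte-like cells in mouse 1. Mouse 2 held 161 of the tuft-like and 189 of the enteroendocrine-like cells. Cells came through different sorting gates, and their part in the differences between types was not tested. In mouse 1 no cell fell in the lymphocyte-like cluster, and its lymphocyte-like sum held the lowest level of the 15 lymphocyte markers (6294 CPM, median 48968 over 4 mice). A Paneth-like sum was had for mouse 2 alone and was not compared, and in it 7 erythrocyte markers, hemoglobin genes among them, summed to 168374 CPM. Of the 8 genes 4 were tested. In enteroendocrine-like cells 2 of 4 passed, both lower, beside 29% of the 7369 genes tested. None passed in goblet-like cells (beside 17.1%), tuft-like cells (24.6%) or lymphocyte-like cells (53.8%) by edgeR. Without mouse 1 none passed in lymphocyte-like cells either, with Fth1 at -1.35 (edgeR adjusted p = 0.0764) and Tfrc at -1.01 (0.0520). Of those, Fth1 in goblet-like cells had an unadjusted p under 0.05 by edgeR (0.0165), and DESeq2 called 1 gene in goblet-like cells, 0 in tuft-like cells and 2 in lymphocyte-like cells. The median log2 change of the 4 genes was -0.94, -0.47, -1.29 and -0.53 in goblet-, tuft-, enteroendocrine- and lymphocyte-like cells, and that of all tested genes -0.47, -0.22, -0.08 and 0.05. Mitochondrial and ribosomal RNA took 62.8 to 78.7% of enterocyte UMIs and 26.2 to 53.5% in the other types. These changes depend on the scaling, since with total UMIs in place of TMM the median of all genes moved to 0.36, 1.29, 1.43 and 1.65, and with total UMIs less those RNA rows to -0.52, 0.47, 0.40 and 0.39. The part of the RNA share in this was not tested.

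Fth1 stood at 563, 2093, 2022 and 1357 CPM (TMM-scaled) in enterocytes of mice 1 to 4. It stood at 513, 577, 614 and 352 in goblet-like cells, 952, 1729, 429 and 428 in tuft-like cells, 238, 660, 658 and 397 in enteroendocrine-like cells and 840, 886, 687 and 597 in lymphocyte-like cells. By total UMIs the order of types was another, with 131, 842, 842 and 639 CPM in enterocytes, 1027, 1549, 800 and 1163 in tuft-like cells and 1767, 936, 720 and 691 in lymphocyte-like cells. The low enterocyte value of mouse 1, whose enterocytes were mostly from the tip (563 of 675 cells), overlapped goblet-, tuft- and enteroendocrine-like cells and lay below every lymphocyte-like sum. Fth1 was lower in enteroendocrine-like cells by -1.60 ± 0.64 (log2; edgeR adjusted p = 0.0482) and had -1.54 ± 0.63 in goblet-like cells (edgeR adjusted p = 0.0816), which passed with the mouse as a replicate block (-1.50, adjusted p = 0.0319, edgeR). The enteroendocrine call was lost without each of the 4 mice (edgeR adjusted p 0.0543 to 0.195), and scaled by total UMIs the value turned to 0.20 (adjusted p = 0.804, edgeR).

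Ftl1 stood at 454, 542, 723 and 618 in enterocytes, 373, 607, 628 and 493 in goblet-like cells, 848, 921, 505 and 367 in tuft-like cells, 209, 694, 503 and 318 in enteroendocrine-like cells and 368, 460, 462 and 405 in lymphocyte-like cells. On this scale all types overlapped enterocytes, and its changes lay between -0.46 and 0.20 (log2), none called. By total UMIs its tuft-like sums (825 to 996 CPM) and lymphocyte-like sums (469 to 773) lay above every enterocyte sum (106 to 301). Free of scaling, the ratio of Fth1 to Ftl1 UMIs was 1.24, 3.86, 2.79 and 2.20 in enterocytes of mice 1 to 4. It was 1.38, 0.951, 0.978 and 0.714 in goblet-like cells, 1.12, 1.88, 0.850 and 1.17 in tuft-like cells, 1.14, 0.951, 1.31 and 1.25 in enteroendocrine-like cells and 2.29, 1.93, 1.49 and 1.47 in lymphocyte-like cells. Against enterocytes the two-sided exact permutation p was 0.0571, 0.0571, 0.0857 and 0.343 in that order (0.114, 0.114, 0.114 and 0.343 adjusted over these 4), where the smallest this design allows is 0.0286. This test was added after the values were seen.

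**Figure D5:**
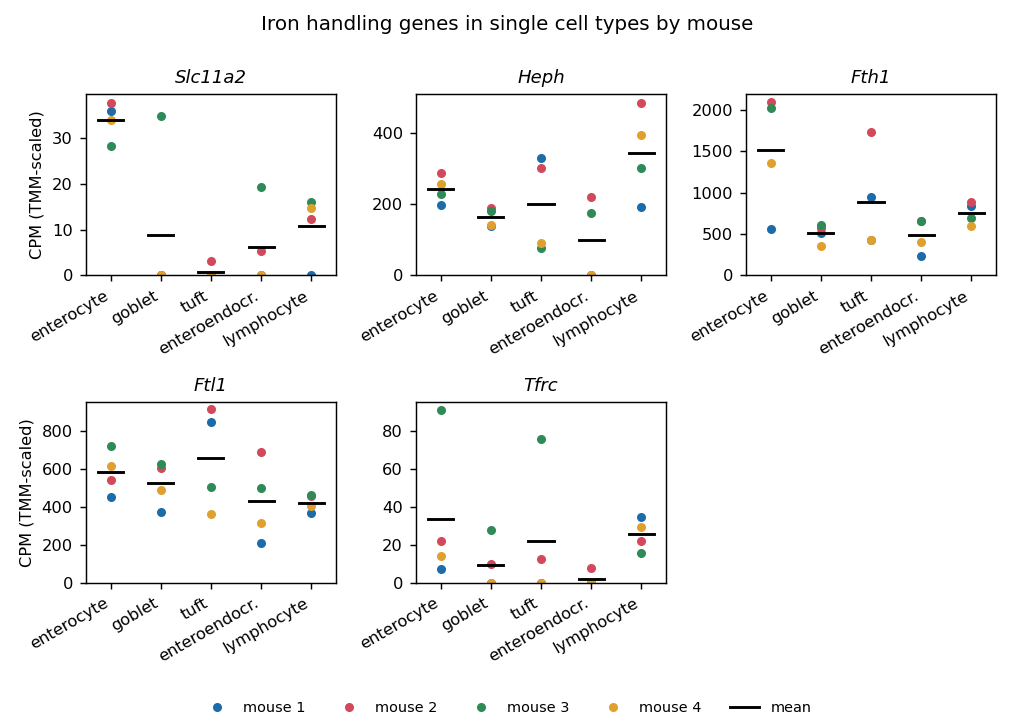
Levels of 5 iron handling genes in single cell types, as TMM-scaled CPM (y axis, linear). Each point is the sum of 1 of 4 mice and black bars are means. Slc11a2 is at 28.2 to 37.6 in enterocytes and at 0 in 9 of the other 16 sums, and Fth1 ranges from 563 to 2093 in enterocytes, while by total UMIs (not plotted) the highest sums of both genes are in other types.

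Heph was counted in every type, at 197, 287, 228 and 258 in enterocytes, 140, 189, 181 and 141 in goblet-like cells, 329, 303, 75.7 and 91.7 in tuft-like cells and 193, 485, 301 and 394 in lymphocyte-like cells. In enteroendocrine-like cells it was at 219 and 174 in mice 2 and 3 and at 0 in mice 1 and 4, whose sums held 27857 and 10323 UMIs. Its goblet-like sums lay below all enterocyte sums and the other types overlapped them, and no change passed (-0.98 to 0.52, log2). By total UMIs goblet-like cells overlapped enterocytes, with 88.9, 114, 128 and 236 CPM against 45.8, 116, 95.2 and 122. Lymphocyte-like cells, at 316 to 512, were then above every enterocyte sum. No background of emptiest wells was subtracted from single cells, and its part in these Heph levels was not tested. Tfrc stood at 7.56, 22.2, 90.9 and 14.0 in enterocytes and at 0, 7.92, 0 and 0 in enteroendocrine-like cells, a change of -2.49 ± 0.93 (log2; edgeR adjusted p = 0.0344) on 3 enteroendocrine UMIs. It was lost without mouse 4 (edgeR adjusted p = 0.0629) and by DESeq2 (adjusted p = 0.186), and without mouse 2 or mouse 3 the gene did not pass the filter on low counts. Scaled by total UMIs without mitochondrial and ribosomal RNA rows, no iron gene was called in these cells. Tfrc was at 35.006, 22.03, 15.9 and 29.5 in lymphocyte-like cells, within the enterocyte range, and by total UMIs at 16.7 to 73.6 there and 1.76 to 37.9 in enterocytes. Of 7 erythrocyte markers 5 had a UMI in lymphocyte-like sums, where they summed to 0 to 3239 CPM, with 0 to 28.2 in enterocytes, and their part in the Tfrc levels was not tested.

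Slc11a2 stood at 35.9, 37.6, 28.2 and 33.9 in enterocytes (TMM-scaled) on 19 to 29 UMIs a mouse. Goblet-like cells had 5 UMIs, all in mouse 3 (34.9 CPM), tuft-like cells 1, enteroendocrine-like cells 3 (0 to 19.3 CPM) and lymphocyte-like cells 24 (0 to 15.9 CPM). On this scale the enterocyte sums were above every sum of tuft-, enteroendocrine- and lymphocyte-like cells. By total UMIs the enterocyte sums were 8.36, 15.2, 11.8 and 15.9 CPM, still above every tuft-like sum (0 to 2.80). Lymphocyte-like sums (0, 12.9, 16.7 and 17.1) then overlapped them, and of the enteroendocrine-like sums only that of mouse 3 (28.0) lay above them. The gene did not pass the filter and has no test in the main fit, and a 0 in a small sum does not show a lower level. The fit with no filter tested it and called 0, 2, 3 and 2 iron genes in goblet-, tuft-, enteroendocrine- and lymphocyte-like cells. These counts stood beside 1480, 2473, 3556 and 7002 of 20539 genes tested. Slc40a1 had 8 UMIs in enterocytes, 6 of them in mouse 3, and 2 in enteroendocrine-like cells, with none in the other types compared. Hmox1 had 4 UMIs in tuft-like cells, all in mouse 2, and 7 in lymphocyte-like cells, and none in enterocytes. The 10 macrophage markers summed to 0 to 581 CPM in tuft-like sums (7 with a UMI), 141 to 847 in lymphocyte-like sums (9) and 30.4 to 63.8 in enterocytes (6), and their part in the Hmox1 counts was not tested.

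Cybrd1 had 3 UMIs among the clustered cells. Clusters built without the iron genes placed all 3 in a stroma-like cluster of 10 cells, led by Dcn and Col3a1, and none in the 6 other clusters, which included 2559 enterocyte-like cells. By marker call, 2 of those UMIs fell among enteroendocrine-like cells of mouse 3, and 6 stromal markers reached 3972 CPM in an enteroendocrine-like sum against 1.65 or less in enterocytes. The 0 in enterocyte sums allows up to 2.81, 1.10 and 0.813 CPM in crypt, mid-villus and tip.

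The wider iron pathway was followed through 43 other genes of iron transport, regulation and use, of which 16 were tested in clumps. At the tip against the crypt 6 of the 16 passed, 3 higher and 3 lower, with a median log2 change of -0.32, beside 52.8% and -0.15 over all genes tested. Slc46a1, which carries folate and has been described as a heme carrier, had a median of 8.78 CPM in crypt, 47.6 in mid-villus and 156 in tip clumps, and rose at the tip in 5 of 5 mice (4.25 ± 0.44, log2; edgeR adjusted p = 2.44e-07). Fbxl5, which marks iron regulatory protein for destruction when iron is plentiful, rose by 1.24 ± 0.41 (edgeR adjusted p = 0.0142), and Ncoa4, which delivers ferritin to lysosomes, by 1.17 ± 0.44 (edgeR adjusted p = 0.0289). Both calls rested on the settings, being lost without mouse 2 or mouse 3 and in 4n pairs alone (Fbxl5 0.66 and Ncoa4 0.11), and that of Ncoa4 also without mouse 4. DESeq2 called neither (adjusted p = 0.0565 for Fbxl5 and 0.0897 for Ncoa4).

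The iron chaperones Pcbp2 and Pcbp1, which pass iron to ferritin and also bind RNA, fell by 1.58 ± 0.29 (edgeR adjusted p = 0.000154) and 1.12 ± 0.33 (0.00654), and Blvrb, a biliverdin reductase, by 1.42 ± 0.45 (0.0119), each lower at the tip in 5 of 5 mice. Without mouse 2 the adjusted p of Blvrb was 0.0722 by edgeR. In the mid-villus 5 of 16 passed, 4 higher and 1 lower, beside 40% of all genes. In single enterocytes 3 of 10 passed at the tip, with a median log2 change of 0.51, beside 54% and 0.08 over all genes. They were Slc46a1, higher by 2.72 ± 0.47, and Pcbp1 and Pcbp2, with changes of -0.93 ± 0.29 and -0.97 ± 0.30 (edgeR adjusted p = 0.000103, 0.0112 and 0.0115).

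Over the 15 sums of mice and zones, the 7445 genes of clumps were ranked by their correlation with each tested member on log2(CPM + 1). The most alike were Tapbpl and Cd151 for Slc11a2 (Pearson r 0.954 and 0.936), Tmem256 and Dynlrb1 for Heph (0.944 and 0.934), Casp6 and Chchd10 for Fth1 (0.962 and 0.936), Txndc17 and Gpd1 for Ftl1 (0.952 and 0.941) and Cbx5 and Ncbp1 for Tfrc (0.992 and 0.990). The sums share mice and depths, so these values describe likeness and carry no test.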

How the data were processed

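Both deposited tables hold whole-number UMI counts per gene and well (MARS-seq), which the authors made with bcl2fastq 2.15.0.4 (per the labels), zUMIs and STAR on GRCm38, before background subtraction. Well barcodes repeat from plate to plate by design.

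Clumps were kept at 200 or more genes, over 500 UMIs and a mitochondrial share of up to 30%. The limits for cells were 200 to 7000 UMIs, 150 to 1500 genes and a mitochondrial share of up to 40%. No doublet caller was run. Zones came from 70 landmark genes, left out of the counts of called genes, and cell types from at least 10 marker UMIs. Wells were summed per mouse and group (at least 5 wells) and fitted with edgeR 4.0.16 (R 4.3.3; quasi-likelihood test, TMM, filterByExpr, Benjamini-Hochberg over all genes, 0.05). Alternatives included DESeq2 1.42.0. On simulated data the tip against crypt fit in clumps (6925 genes) recovered 12% of 2-fold and 79.8% of 4-fold changes, in single enterocytes (3814 genes) 23.7% and 79.8%, and the goblet fit (3625 genes) 0% and 18.3%. Only 92 and 94 tested genes carried such changes in the clump simulation, while 52.8% of genes were called in the data. The adjusted p depends on that share, so these recoveries do not describe the fits of the data. Intervals are exact Poisson at 95%, floors are 3 UMIs, and both cover counting error only.

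The same number was taken to mark the same animal within a table. The plates of single cell mouse 2 carry the ages 3 and 4 months, so that number may cover several animals. Same-mouse sums deviated together between zones (r 0.172 to 0.544 in clumps, 0.102 to 0.484 in enterocytes) and less between types (-0.068 to 0.356).

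The named genes were the 8 members, the other iron genes called in clumps at the tip against the crypt (at most 12), and the 2 genes most like each tested member. The members and lists were chosen with earlier results of these data known.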

Additional observations from a re-analysis of the deposited data

Results flagged for a closer look

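Among 50 groups of 4 or 5 sums of members that passed the filter on low counts, 4 held a sum far from the others. Chance gives such a gap in about 1 group in 20 of normal values, a share that need not hold where most sums are 0. Members below the filter were not checked in this way. In clumps at the tip, Tfrc was at 46.6 CPM in mouse 4 and at 0 to 12.6 in the other mice. In single enterocytes at the tip, Slc11a2 was at 6.93 in mouse 3 and at 9.18 to 9.61 in the others. In enteroendocrine-like cells Tfrc was at 7.92 in mouse 2 and at 0 in the others, and in tuft-like cells at 75.7 in mouse 3, on 3 UMIs, and at 0 to 12.5 in the others.

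Signals above the 3 UMI floor were also present in wells kept out of the main comparisons. Clumps of mouse 6, gated above 2n, held 1888 UMIs of Fth1, 505 of Ftl1, 442 of Heph, 49 of Tfrc and 21 of Slc11a2. Cells with no type call held 950 UMIs of Fth1, 774 of Ftl1, 328 of Heph, 41 of Tfrc, 10 of Slc11a2 and 8 of Slc40a1.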

How the results depend on the processing

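Of 799 alternative values of single genes, 723 kept direction and call, 57 lost a call, 16 gained one and 3 reversed. Scaled by total UMIs (chosen after seeing the data), Fth1 in enteroendocrine-like cells turned to 0.20, Ftl1 there to 1.40 and Ftl1 in lymphocyte-like cells to 1.29. Leaving out a mouse, the iron genes called in clumps ranged from 1 to 3 at the tip against the crypt (3 with all mice), 1 to 3 in the mid-villus (3), and 0 to 1 at the tip against the mid-villus (1). In single enterocytes they ranged from 2 to 3 at the tip (3) and from 1 to 2 in the mid-villus (2), and in enteroendocrine-like cells from 0 to 1 (2). Zones by z score gave 0 at the tip against the mid-villus in clumps and 0 in the mid-villus of single enterocytes, and 4n pairs alone gave 1 in the mid-villus of clumps. With mouse 6 added the mid-villus count of clumps stayed at 3 although Slc11a2 lost its call, so another iron gene gained a call there. In single enterocytes, the tip against crypt count was 2 with zones by z score, 2 without mitochondrial and ribosomal RNA rows and 4 by total UMIs, and the mid-villus count was 1 without mitochondrial and ribosomal RNA rows (also chosen after seeing the data) and 1 with no filter, and the tip against mid-villus count (1) was 3 by total UMIs, 2 without those rows, 2 with no filter and 2 by clusters. Goblet-like cells (0) gave 1 by DESeq2 and 1 with the mouse as a replicate block. Tuft-like cells (0) gave 1 by total UMIs and 2 with no filter. Enteroendocrine-like cells (2) gave 1 by total UMIs, 0 without those rows, and 1 by DESeq2, by clusters or with 20 marker UMIs. Lymphocyte-like cells (0) gave 1 by DESeq2 size factors and 2 by total UMIs, DESeq2 or no filter. The ferritin ratio was -1.33 with mouse 6 added (exact p = 0.0281), -0.745 with zones by z score (exact p = 0.127), -1.47 to -1.08 leaving out a mouse, and -1.23 with the replicate block. In 4n pairs the ratio left out the tip sum of mouse 4, which had no Ftl1 UMI. The causes were not tested.

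With the mouse as a replicate block, the calls of Ftl1 in the mid-villus of clumps, Slc11a2 at the tip of single enterocytes and Fth1 in goblet-like cells were gained, and no other call of an iron gene changed. Adding ferritin pseudogene rows was not run, since neither table as used here has such rows. Depth limits the tip of mice 4 and 5 (80671 and 79055 UMIs) and the rare types most.

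The count of all genes called also moved. In clumps at the tip against the mid-villus (882 genes, 421 of them higher) it was 1995 with the replicate block, 134 with zones by z score, and 331, 349 and 352 without mouse 1, 2 or 3. At the tip against the crypt (3893, 1652 higher) it was 2394 in 4n pairs and 2495 without mouse 3, and in the mid-villus (2950, 1210 higher) 1479 and 1708. Without mouse 2 the goblet, tuft, enteroendocrine and lymphocyte counts fell from 1257, 1810, 2137 and 3962 to 168, 190, 246 and 553, as the genes tested fell from 7369 to 879. The clump fits without mouse 1, 2 or 3 and in 4n pairs also tested fewer genes (6348, 6403, 5087 and 4670, of 7380). Scaling by total UMIs moved their higher calls from 375, 729, 922 and 1998 to 787 of 1137, 2434 of 2809, 3028 of 3367 and 4287 of 5181. In clumps it gave 1087 higher of 3783 at the tip and 244 of 912 against the mid-villus, and in single enterocytes 355 of 2044 (1104 of 2274 by TMM), 119 of 733 (314 of 926) and 154 of 1416 (602 of 1224) at the tip, in the mid-villus and between them. The mid-villus count of single enterocytes was 245 with zones by z score.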
